A study of Mus musculus with 2 samples.

Results

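The cells described here were barcodes of the library made 3 days post injury (3 dpi) that carried microglia genes and few UMIs of dividing cells. A UMI (unique molecular identifier) is 1 counted RNA molecule. A barcode was taken if it had at least 2000 UMIs and if P2ry12, Tmem119, Fcrls, Olfml3, Siglech and Sall1 summed to at least 5 per 10000 UMIs. It also needed Mag, Mog and Mobp below 40 and Hmox1 below 80 per 10000, and at most 2 UMIs in all over the 10 cell cycle genes Mki67, Top2a, Cdk1, Ccnb1, Birc5, Cenpf, Tpx2, Ube2c, Pclaf and Ccna2. Of the 11702 barcodes at 3 dpi with 2000 UMIs, 1366 were taken, or 11.7% (95% Clopper-Pearson interval 11.1 to 12.3), out of 23732 barcodes in the series. The barcodes were thus chosen by the measured levels of these gated genes, which are given as descriptions only.

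The study had 2 libraries of spinal cord from C57BL/6 mice aged 8 weeks, 1 at 3 dpi and 1 from sham animals, each a pool of 5 male and 5 female mice. The labels do not name the injury. In each library a cord segment of 8 mm was dissociated and counted by the 10x 3′ method. The comparison groups were the 2212 sham barcodes that passed the same gates, 1591 cycling barcodes at 3 dpi with more than 2 cell cycle UMIs, and 1737 monocyte/macrophage barcodes at 3 dpi. Each condition was 1 library, so nothing was tested, and injury cannot be told apart from library batch.

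Microglia are the resident macrophages of the central nervous system. They are seeded in the embryo, renew themselves, depend on CSF1 receptor and TGF-beta signals, and in healthy tissue keep a surveying state marked by purine and fractalkine receptors. After injury they take up myelin and dead cells, divide, and share the lesion with macrophages that arise from blood monocytes. Many genes of both cell types then overlap, which makes the surveying-state genes the usual way to tell them apart.

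The label of microglia was clear for a part of the barcodes only. A sum over 9 monocyte/macrophage genes (Ccr2, Ly6c2, Plac8, Chil3, Arg1, Pf4, F13a1, Ms4a7 and Clec4e) reached 5 per 10000 UMIs in 583 of the 1366 barcodes, or 42.7% (40 to 45.4), against 35 of 2212 sham barcodes, or 1.58% (1.1 to 2.19). In 402 of the 583 the sum was 20 or more. The share was 78.3% of the 410 barcodes with a microglia-gene sum of 5 to 10, 51.4% of the 321 with 10 to 20, and 15.3% of the 635 with 20 or more. Macrophage genes were thus common near the lower edge of the gate and sparse where microglia genes were high. In all, 88 barcodes passed a fibroblast gate (some also with macrophage genes), and in these Olfml3 alone supplied 77.8% of the microglia-gene sum.

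For this reason a restricted set is described beside the 1366, or alone where so stated. It held the 700 barcodes with neither macrophage genes at 5 per 10000 nor the gate of another cell class. The same restriction left 2047 sham and 1170 cycling barcodes. Summed over 11 microglia markers, the level was 11158 per 1000000 UMIs (CPM) in all 1366 and 15010 CPM in the restricted set, against 26349 CPM in all sham barcodes and 27962 CPM in the restricted sham set. The 583 barcodes with macrophage genes held 7819 CPM of these markers, against 1652 CPM in macrophage barcodes, whose gate kept microglia genes low. Whether the 583 were microglia, macrophages or mixed barcodes was not tested. The 9 macrophage markers summed to 2283 CPM in the 1366 and 178 CPM in the restricted set, against 73.1 and 2.13 CPM in the sham sets, where 6 of the 9 markers were at 0 in the restricted one. The restricted 3 dpi set thus still held more macrophage UMIs than sham, and their part in its ratios was not tested. The 4 fibroblast markers summed to 1441 CPM in all 1366 and 41 CPM in the restricted set, against 653 and 6.17 CPM in the sham sets. Among these markers Col1a1, Col1a2 and Dcn made up the fibroblast gate, so the restriction fixed the fall of this sum. The 5 neutrophil markers summed to 250 CPM in the 1366 and 166 CPM in the restricted set, against 2.37 and 2.13 CPM in the sham sets, and their part in the ratios was not tested.

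**Figure D1:**
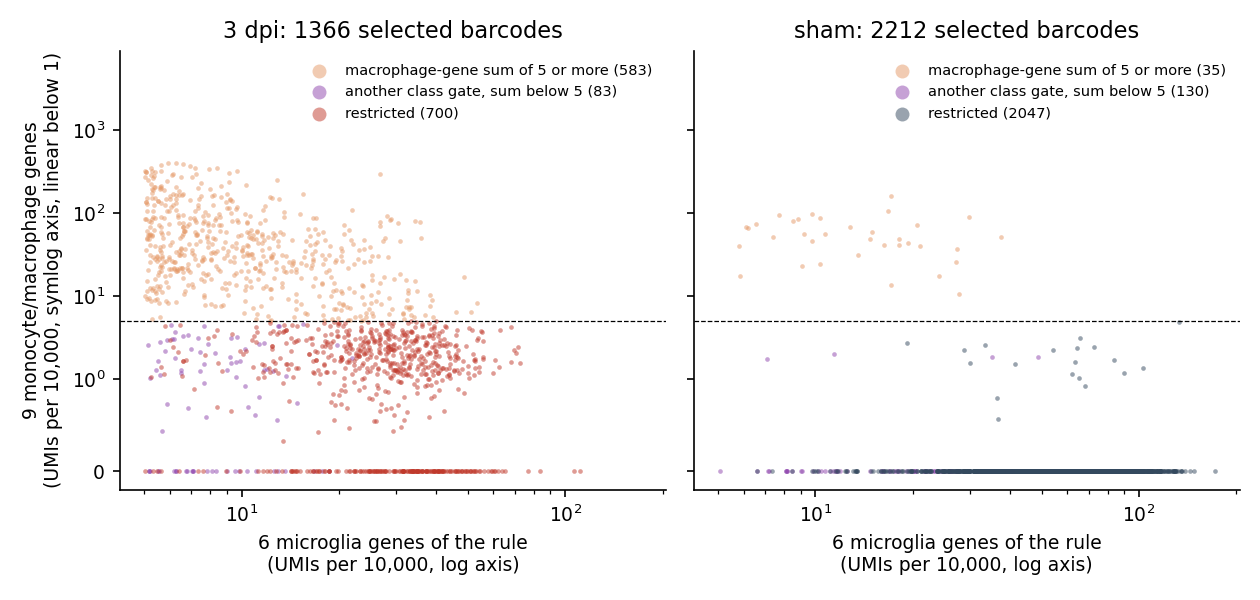
Each point is 1 selected barcode, with the summed level of the 6 microglia genes of the gate on the horizontal log axis and of 9 monocyte/macrophage genes on the vertical symlog axis, both as UMIs per 10000, at 3 dpi (left) and in sham (right). At 3 dpi 583 of 1366 barcodes lie on or above the dashed line at 5 per 10000, mostly at low microglia-gene sums, against 35 of 2212 in sham.

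Depth and mixing differed between the groups. The 1366 barcodes held 2010 to 39495 UMIs with a median of 9242, against 15657 in cycling, 5699 in macrophage and 4077 in sham barcodes. In the whole libraries the medians were 9117 UMIs at 3 dpi and 5522 in sham. Simulated doublets called 10.5% (8.89 to 12.2) of the 1366 and 5.86% (4.24 to 7.86) of the restricted barcodes as doublets, against 7.37% (6.31 to 8.54) of all and 3.18% (2.46 to 4.03) of restricted sham barcodes. Of the 583 barcodes with macrophage genes, 17% (14 to 20.3) were called doublets. Among barcodes with sex-linked UMIs, UMIs of both Xist and a Y-linked gene occurred in 5.45% of the 1366 and 4.23% of the restricted, against 10.1% in sham. Oligodendrocyte markers summed to 586 CPM in the 1366, against 2742 CPM in sham. The part of depth in the ratios was not tested, and counts with called doublets removed are among the alternatives. The libraries shared 39 barcode sequences.

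The 6 gated genes did not keep their sham proportions. Fcrls, an Fc receptor-like surface protein of microglia, was at 1039 CPM in the 1366 and 1389 CPM in the restricted barcodes, against 1007 CPM in all and 1060 CPM in restricted sham barcodes. Olfml3, a secreted olfactomedin-family protein, was at 640 and 869 CPM at 3 dpi, against 1025 and 1092 CPM in sham. The other 4 genes had much lower levels at 3 dpi. P2ry12, the ADP receptor that steers microglial processes, was at 95.4 and 154 CPM, against 1487 and 1577 CPM in sham. Tmem119, a membrane protein used to label resident microglia, was at 190 and 243 CPM, against 1093 and 1165 CPM in sham. Siglech, a sialic acid-binding lectin, was at 38.6 and 56.9 CPM, against 818 and 869 CPM in sham. Sall1, a transcription factor of microglial identity, was at 24.7 and 40.9 CPM, against 214 and 225 CPM in sham. Fcrls made up 51.2% and Olfml3 31.6% of the gated sum in the 1366 barcodes.

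Of the gates, 3 were examined at their edge, those on microglia genes, cell cycle UMIs and Hmox1. With a microglia-gene sum of 5 to 6, C1qa stood at 2220 CPM and Lyz2 at 17531 CPM in 149 barcodes. With a sum of 4 to 5, just outside the gate, C1qa stood at 2148 CPM and Lyz2 at 17577 CPM in 234 barcodes. Macrophage genes reached 5 per 10000 in 84.6% of the barcodes just inside and 78.2% of those just outside. The cell cycle limit separated 243 barcodes with 2 such UMIs from 138 with 3, with Spp1 at 29876 and 36145 CPM and Pf4 at 721 and 264 CPM. The Hmox1 limit separated 60 barcodes at 60 to 80 per 10000 from 53 at 80 to 100, with Spp1 at 51099 and 49228 CPM. Pf4 thus differed across the cell cycle limit, and also across the microglia-gene limit, at 3992 CPM inside and 2841 CPM outside. It also fell within the gate, from 1516 CPM with 0 cell cycle UMIs to 942 CPM with 1. C1qa and Lyz2 at the microglia-gene limit and Spp1 at the Hmox1 limit were close on both sides. So was Lyz2 at the cell cycle limit, at 4899 and 5063 CPM.

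The first comparison asked how these barcodes differed from sham barcodes of the same gates. A gene counted as higher or lower when its ratio passed 2-fold with 10 CPM added to both sides, a rule of size and not a test, among genes at 20 CPM or more in at least 1 group. Of 6402 genes, 569 (8.89%) were higher and 933 (14.6%) lower in the 1366 barcodes. In the restricted comparison 501 of 6152 genes (8.14%) were higher and 778 (12.6%) lower. The calls shared by both were 433 higher genes, 76.1% of the first list and 86.4% of the second, and 725 lower genes, 77.7% and 93.2%. Scaling by the median of ratios, a shift of 0.26 upwards on the log2 scale before 10 CPM is added, gave 806 higher and 691 lower genes for the 1366, so the balance of higher and lower calls moved with the scaling. Of the 569 higher genes 492 (86.5%), and of the 933 lower genes 802 (86%), passed 2-fold in male- and in female-derived barcodes taken alone.

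Among the named genes the highest ratio was that of Spp1, osteopontin, a secreted matrix protein that binds integrins and CD44. It stood at 30553 CPM (95% Poisson interval 30460 to 30640) in the 1366 barcodes and 26870 CPM in the restricted set, against 155 CPM (147 to 162) and 147 CPM in the sham sets, log2 ratios of 7.54 and 7.42. All intervals cover counting error only. Among the restricted barcodes all 700 held Spp1 UMIs, with a 5th percentile of 7.68, a median of 71.8 and a 95th percentile of 881 UMIs per 10000. In sham 98.5% of 2047 restricted barcodes had none, and the highest held 457 per 10000. At an equal depth of 2000 UMIs, 97% of restricted 3 dpi barcodes and 1.17% of restricted sham barcodes held at least 1 Spp1 UMI.

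Spp1 UMIs were also found in cells of other classes. At 3 dpi Spp1 stood at 1117 CPM in precursor, 1503 CPM in endothelial, 1636 CPM in oligodendrocyte, 2147 CPM in fibroblast and 3039 CPM in neutrophil barcodes. In sham oligodendrocyte barcodes it stood at 1.19 CPM. The 175 restricted barcodes with the lowest Spp1 level stood at 1092 CPM, no higher than these classes, so a UMI of Spp1 in a single barcode did not by itself show expression there.

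Other genes high at 3 dpi were galectins, matrix and lipid genes. Lgals3, galectin-3, a lectin of phagocytes, was at 2036 CPM in the 1366 and 1121 CPM in the restricted set, against 14 and 12.2 CPM in the sham sets. Lgals1, galectin-1, was at 1598 and 1033 CPM, against 25.6 and 11.9 CPM. Fn1, fibronectin, was at 1162 and 1114 CPM, against 28.9 and 3.62 CPM, log2 ratios of 4.91 and 6.37. Restriction left the ratio of Lgals1 near that of all barcodes, lowered that of Lgals3 and raised that of Fn1. Vim, vimentin, an intermediate filament protein, was at 1574 and 1183 CPM, against 67.5 and 21.6 CPM. Msr1, a scavenger receptor for modified lipoproteins, was at 235 and 224 CPM, against 3.12 and 1.49 CPM. Saa3, an acute phase protein, was at 227 and 189 CPM, against 0.852 and 0.957 CPM. Adam8, a membrane metalloprotease of myeloid cells, was at 220 and 144 CPM, against 1.42 and 1.49 CPM. Vim, Msr1, Saa3 and Adam8 had restricted log2 ratios of 5.24, 4.35, 4.18 and 3.75, given in this order.

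A second group of the highest genes lost most of its level with the restriction. Arg1, arginase-1, was at 658 CPM in the 1366 but 27.3 CPM in the restricted set, against 0 UMIs in sham. Measured against a floor of 3 counts over all sham barcodes, that is at least 2318-fold higher in the 1366 barcodes, and at least 85.6-fold higher in the restricted set against its own sham floor. In macrophage barcodes Arg1 stood at 2450 CPM. Gpnmb, a lysosomal membrane glycoprotein, was at 433 and 77.2 CPM, against 1.33 and 1.49 CPM in sham, and Thbs1, thrombospondin-1, at 405 and 53.7 CPM, against 5.49 and 5.11 CPM. Pf4, platelet factor 4 and one of the 9 macrophage markers, was at 1153 and 94 CPM, against 47.8 and 0.957 CPM. Igfbp5, an IGF-binding protein, was at 226 and 25.7 CPM, against 0.473 and 0.532 CPM, and reached 3044 CPM in the barcodes of the fibroblast gate. Fabp5, a fatty acid carrier, was at 2912 and 1170 CPM, against 115 and 120 CPM, and S100a6, a calcium-binding protein, at 788 and 201 CPM, against 17.3 and 7.13 CPM. Arg1 and Pf4 are among the 9 genes of the restriction, which fixed their fall, while the values of Gpnmb, Thbs1 and Igfbp5 in the 1366 came mainly from barcodes that also held macrophage or other-class genes.

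**Figure D2:**
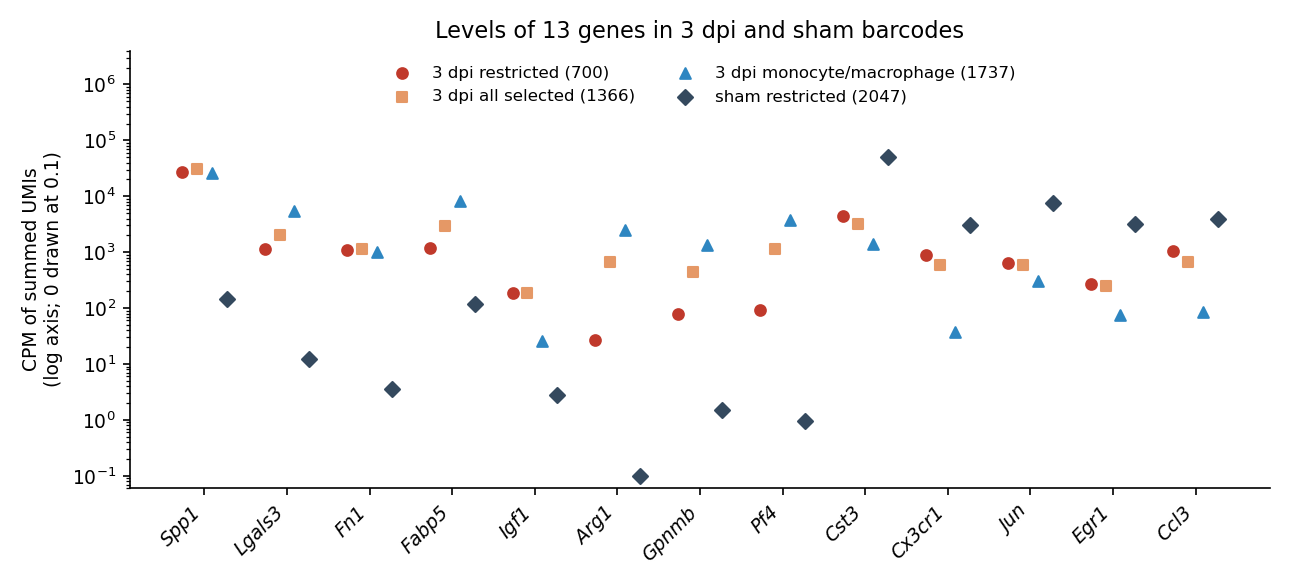
Levels of 13 genes as CPM of summed UMIs on a log axis in restricted 3 dpi barcodes (circles), all selected 3 dpi barcodes (squares), 3 dpi monocyte/macrophage barcodes (triangles) and restricted sham barcodes (diamonds), with 0 drawn at 0.1. Spp1, Lgals3, Fn1 and Igf1 lie far above sham in both 3 dpi sets, Arg1, Gpnmb and Pf4 drop in the restricted set, and Cst3, Cx3cr1, Jun, Egr1 and Ccl3 lie below sham.

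The lowest genes were a protease inhibitor, early response factors and surface receptors. Cst3, cystatin C, an inhibitor of cysteine cathepsins and a leading transcript of resting microglia, was at 3252 CPM (3223 to 3282) in the 1366 and 4439 CPM in the restricted set, against 47277 CPM (47150 to 47410) and 50140 CPM in the sham sets, log2 ratios of -3.86 and -3.50. Per restricted barcode its 5th to 95th percentiles ran from 11.5 to 134 per 10000 at 3 dpi, against 241 to 774 in sham, so these central ranges did not overlap. Jun, an AP-1 subunit, was at 580 and 649 CPM, against 7271 and 7575 CPM in sham. Egr1, a zinc finger factor of the early response, was at 251 and 274 CPM, against 3041 and 3205 CPM. Both factors were far below sham in either 3 dpi set, with restricted log2 ratios of -3.52 and -3.50. Adgrg1, an adhesion receptor, was at 11.7 and 18.1 CPM, against 279 and 290 CPM, and Slc2a5, a fructose transporter, at 9.45 and 15.8 CPM, against 180 and 192 CPM. Selplg, the selectin ligand PSGL-1, was at 186 and 259 CPM, against 1876 and 2000 CPM. The others of the 15 lowest were Ier5, P2ry13, Csmd3, Crybb1, Lag3, Klf2, Ighm, Rhob and Egr3, with log2 ratios from -3.58 to -3.00 in the 1366 and from -3.49 to -2.62 in the restricted set.

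The regions around the start sites of Spp1 and Cst3, the named genes with the highest and the lowest ratio, are printed so that the promoters behind these levels can be read. Sequences are from RefSeq on GRCm38.p6, from 250 bases before to 50 after a start. Spp1 lies on the plus strand, with this window at chr5:104434861-104435160, and Cst3 on the minus strand, with its window at chr2:148875463-148875762. Capitals mark the PU.1 core GAGGAA, the site form of the factor that macrophage lineages require.
Spp1: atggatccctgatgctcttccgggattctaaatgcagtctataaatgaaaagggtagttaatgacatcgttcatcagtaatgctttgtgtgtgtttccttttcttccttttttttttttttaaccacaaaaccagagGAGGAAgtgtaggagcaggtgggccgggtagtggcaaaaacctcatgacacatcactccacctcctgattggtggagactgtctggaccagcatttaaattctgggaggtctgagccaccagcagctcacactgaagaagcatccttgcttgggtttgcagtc
Cst3: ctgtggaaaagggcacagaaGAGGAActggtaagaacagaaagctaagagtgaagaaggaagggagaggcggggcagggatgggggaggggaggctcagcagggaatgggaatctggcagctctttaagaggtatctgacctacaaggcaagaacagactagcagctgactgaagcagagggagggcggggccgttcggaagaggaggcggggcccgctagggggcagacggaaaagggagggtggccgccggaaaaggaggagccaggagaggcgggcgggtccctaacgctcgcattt
The motifs searched on both strands were TGANTCA (AP-1), GAGGAA (PU.1 core) and CACGTG (the E-box of the MiT family). Spp1 held 1 GAGGAA, 113 bases before the start, and Cst3 held 1, 230 bases before the start, and neither held the other 2 motifs. A second Spp1 window, at chr5:104435942-104436241, held none of the 3. Among all 32851 windows, 7.81% held TGANTCA, 28.3% GAGGAA and 7.15% CACGTG. Of the 15 highest and 15 lowest named genes 9 each were in the table, with 10 windows each. Matches among them numbered 1, 3 and 1 of 10 windows for the higher genes and 1, 2 and 0 of 10 for the lower genes, in the order AP-1, PU.1 and E-box.

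Genes of the surveying state were lower as a group. The counts of this and the next lists stand beside shares over all genes. These were 8.14% higher and 12.6% lower in the restricted comparison, and 8.89% and 14.6% in the 1366. Of 26 measured homeostatic genes outside the gate, 22 were lower and 0 higher in the 1366 barcodes, with a median log2 ratio of -2.15, beside a median of -0.20 over all measured genes. In the restricted set 17 were lower and 0 higher, with a median of -1.79 beside -0.19. Cx3cr1, the fractalkine receptor, was at 596 and 899 CPM at 3 dpi, against 2899 and 3069 CPM in sham. Csf1r, the survival receptor of the lineage, was at 640 and 915 CPM, against 2652 and 2796 CPM. Cx3cr1 and Csf1r had restricted log2 ratios of -1.76 and -1.60. Gpr34, a lysophosphatidylserine receptor, had a restricted log2 ratio of -2.12, P2ry13, a purine receptor, -2.79, and Crybb1, a crystallin, -2.62. Some genes did not pass 2-fold. Serpine2, a protease inhibitor, was at 263 CPM in the restricted set, against 255 CPM in restricted sham, and Bin1, a membrane-bending adaptor, at 598 CPM, against 739 CPM.

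Transcription factors and TGF-beta genes were lower on balance. Of 17 measured factors of microglia and macrophages, 5 were lower and 1 higher in the restricted set, and 6 and 2 in the 1366, with medians of -0.63 and -0.81. Spi1, which encodes PU.1, was at 422 CPM in the restricted set, against 490 CPM in restricted sham. Mef2c and Mef2a, MADS-box factors of microglial enhancers, had restricted log2 ratios of -1.22 and -1.33, and Cebpa, a myeloid factor, -1.61. Bhlhe40, a basic helix-loop-helix repressor, was the 1 factor higher in the restricted set, at 28.8 CPM, against 3.3 CPM in sham. Of 12 measured TGF-beta genes 5 were lower and 1 higher in both sets. Tgfbr1, a receptor for TGF-beta, was at 99.1 CPM in the restricted set, against 628 CPM in sham, and Smad7, a feedback inhibitor, at 67.4 CPM, against 333.5 CPM. Tgfbi, a secreted target, was the exception at 189 CPM, against 25.1 CPM.

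Genes of activated phagocytes were higher as a group. Of 28 measured genes 18 were higher and 0 lower in both sets, with medians of 1.69 in the 1366 and 1.71 in the restricted barcodes. Apoe, the lipid carrier of glia, was at 17750 and 14540 CPM, against 2411 and 1638 CPM in sham. Igf1, insulin-like growth factor 1, was at 189 and 187 CPM, against 4.73 and 2.77 CPM. Lpl, lipoprotein lipase, was at 222 and 320 CPM, against 48.5 and 50.5 CPM. Cst7, cystatin F, was at 62 and 93.6 CPM, against 5.68 and 6.28 CPM, and Ch25h, cholesterol 25-hydroxylase, at 58.9 and 83.4 CPM, against 1.04 and 0.425 CPM. Lpl, Cst7 and Ch25h stood higher in the restricted set than in all 1366. Trem2, a lipid-sensing receptor that many activation genes depend on in mouse models, was at 1537 and 1825 CPM, against 2294 and 2435 CPM, and its signalling partner Tyrobp at 3031 and 3208 CPM, against 2747 and 2884 CPM, neither past 2-fold. Itgax, an integrin used to mark activated microglia, was at 2.31 CPM in the restricted set, against 4.04 CPM.

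Uptake receptors and lysosomal genes were mixed. Of 20 measured receptors for apoptotic cells and debris, 5 were higher and 2 lower in the restricted set, and 4 and 2 in the 1366, with medians of -0.19 and -0.29. Besides Msr1, Stab1, a scavenger receptor for phosphatidylserine, was at 304 CPM in the restricted set, against 111 CPM in restricted sham, and Gas6, a bridging ligand, at 264 CPM, against 100.5 CPM. Mertk, the tyrosine kinase receptor that Gas6 binds, was lower at 88.2 CPM, against 281 CPM. The complement genes C1qa, C1qb and C1qc had log2 ratios from -0.36 to -0.16 in the restricted set. Of 22 lysosomal genes 6 were higher and 2 lower in the restricted set, and 7 and 2 in the 1366, with medians of 0.66 and 0.56. The shares lower in the restricted set, 10% of the receptors and 9.09% of the lysosomal genes, did not exceed the 12.6% of all genes. Ctsb, cathepsin B, was at 4602 CPM, against 1364 CPM, and Ctsd, cathepsin D, at 14810 CPM, against 6408 CPM, while Ctss, cathepsin S, was lower at 1779 CPM, against 5223 CPM.

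Lipid and iron genes were higher on balance. Of 17 measured lipid genes 11 were higher in the restricted set and 12 in the 1366, with 0 lower and medians of 1.94 and 1.99. Plin2, the coat protein of lipid droplets, was at 607 CPM in the restricted set, against 32.8 CPM in restricted sham, and Hilpda, an inhibitor of droplet lipolysis, at 161 CPM, against 15.4 CPM. Abca1, a cholesterol exporter, was at 226.5 CPM, against 76.6 CPM. Genes of cholesterol synthesis were not higher: of 8 measured, 0 were higher and 2 lower in both sets, with medians of -0.78 and -0.79. Of 15 measured iron, heme and oxidative stress genes in the restricted set 7 were higher and 1 lower, and of 16 in the 1366, 11 and 1. The ferritin chains were among the most abundant transcripts, Fth1 at 25090 CPM, against 6848 CPM in restricted sham, and Ftl1 at 19850 CPM, against 4821 CPM. Slc40a1, the iron exporter ferroportin, was the lower gene, at 11.7 CPM, against 46.8 CPM. Hmox1, limited by the gate, is not in this list.

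Nuclear genes of energy metabolism were higher as well. Of 15 measured genes of glycolysis and hypoxia 12 were higher and 0 lower in the restricted set, with a median of 2.12, the highest of the lists, and of 17 in the 1366, 14 and 1, with a median of 2.20. Gapdh was at 2967 CPM in the restricted set, against 599 CPM in restricted sham, Pkm, pyruvate kinase, at 1168 CPM, against 215 CPM, and Ldha, lactate dehydrogenase A, at 578 CPM, against 138 CPM. Hk2, a hexokinase, did not follow, at 260 CPM, against 417 CPM. Of 21 measured genes of oxidative phosphorylation 11 were higher in the restricted set and 10 in the 1366, with 0 lower and medians of 1.10 and 0.93. Cox5a, a cytochrome oxidase subunit, was at 467 CPM, against 144 CPM, while Sdha, of complex II, was at 83.3 CPM, against 95.6 CPM. The tables held 0 mitochondrial genes, so the mitochondrially encoded subunits were not analysed here.

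**Figure D3:**
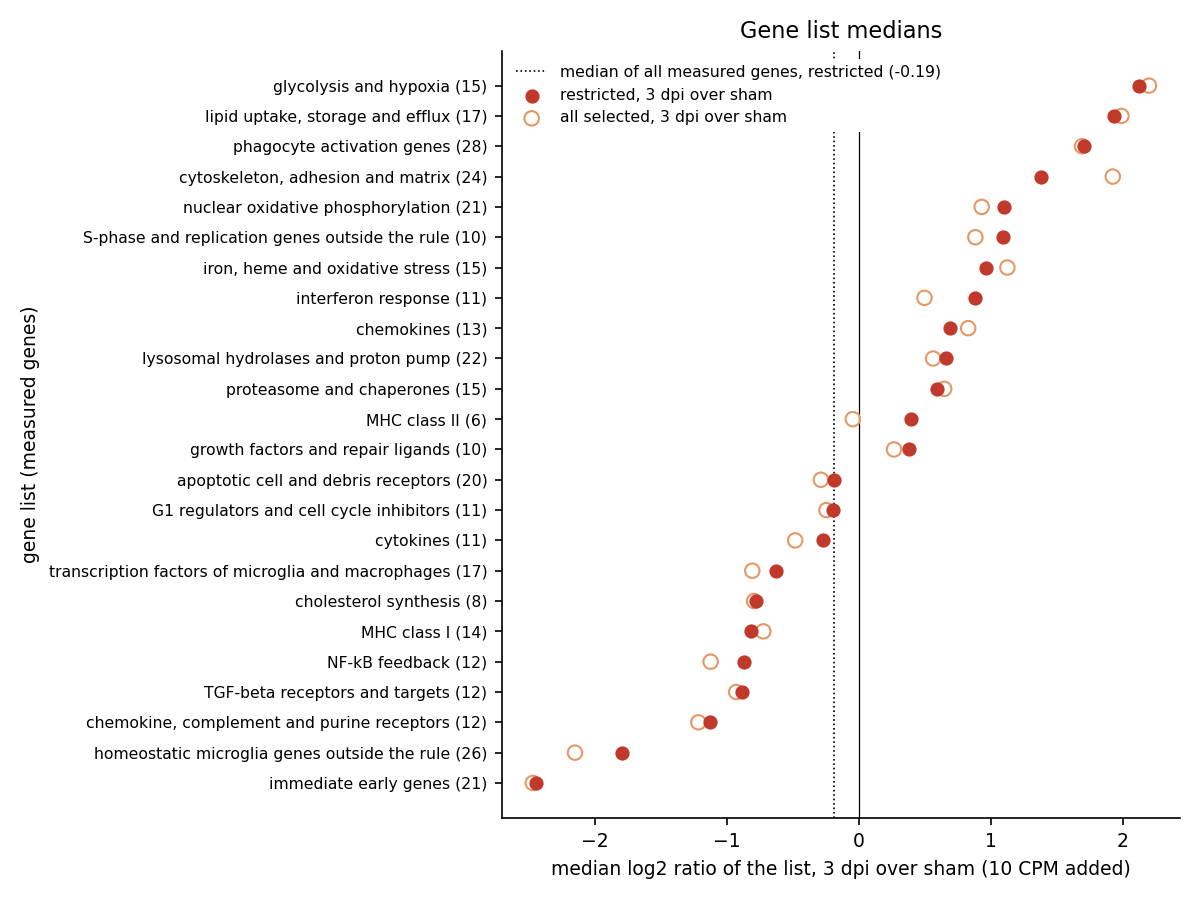
Median log2 ratio of 3 dpi over sham for each gene list with at least 4 measured genes in restricted (filled) and all selected (open) barcodes, with the number of genes measured in the restricted comparison in brackets. The dotted line marks the median of all genes in the restricted comparison, -0.19. Glycolysis, lipid and phagocyte activation lists lie highest, and homeostatic and immediate early genes lowest.

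Cytoskeletal and matrix genes were higher, with a larger median in all 1366 barcodes than in the restricted set. Of 25 measured genes 17 were higher in the 1366, with a median of 1.92, and of 24 in the restricted set also 17, with a median of 1.38, with 0 lower in both. Anxa2, a membrane-binding annexin, was at 405 and 244 CPM at 3 dpi, against 15.8 and 3.51 CPM in sham. Cd44, the hyaluronan receptor that also binds osteopontin, was at 104 and 46.2 CPM, against 5.11 and 3.94 CPM. Tmsb4x, thymosin beta-4, which holds actin monomers, was at 28540 and 36390 CPM, against 14860 and 15140 CPM. Anxa1, a resolution-associated annexin, was at 66.5 CPM in the 1366 but 5.98 CPM in the restricted set, against 0.284 and 0.213 CPM.

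Cytokines and chemokines differed in both directions. Of 11 measured cytokines 2 were higher and 4 lower in both sets. Il1b, interleukin-1 beta, was at 600.5 CPM in the restricted set, against 243.5 CPM in restricted sham, and Il1rn, its receptor antagonist, at 39.5 CPM, against 3.72 CPM. Tnf was lower at 260 CPM, against 834 CPM, and so was Il1a at 181 CPM, against 654 CPM. Of 13 measured chemokines 5 were higher and 2 lower in the restricted set, and 6 and 2 in the 1366. The share of chemokines lower in the restricted set, 15.4%, was near the 12.6% of all genes. Ccl3 and Ccl4, chemokines that attract leukocytes, were the lower genes, Ccl3 at 1037 CPM, against 3891 CPM in restricted sham, and Ccl4 at 2490 CPM, against 5906 CPM. Cxcl2, a neutrophil attractant, was higher at 571 CPM, against 201 CPM, and Ccl2, a monocyte attractant, stood at 372 CPM, against 287 CPM. Of 12 measured chemokine, complement and purine receptors in the restricted set 7 were lower and 1 higher, that 1 being Ccr1, a receptor of inflammatory chemokines, at 45.2 CPM, against 17.6 CPM in restricted sham.

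Early response genes were lower nearly throughout. Of 21 measured immediate early genes 20 were lower and 0 higher in the 1366, with a median of -2.47, and 19 and 0 in the restricted set, with a median of -2.44. Fos was at 847 CPM in the restricted set, against 4137 CPM in restricted sham, and Klf2, a Krüppel-like factor, at 505 CPM, against 3721 CPM. The 2 that did not pass in the restricted set were Ier3, at 620.2 CPM, against 1131 CPM, and Dusp2, at 88.6 CPM, against 187 CPM. These genes are known to respond to tissue dissociation, and the handling of each library cannot be told apart from injury. NF-kB feedback genes were also lower, 5 of 12 in the restricted set and 7 of 12 in the 1366, with 0 higher and medians of -0.87 and -1.12. Nfkbia, the inhibitor of NF-kB, was at 1320 CPM in the restricted set, against 3733 CPM in sham.

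Interferon and antigen presentation genes differed in both directions, and are set beside the 8.14% higher and 12.6% lower of all genes in the restricted comparison. Of 11 measured interferon response genes 4 were higher and 1 lower in the restricted set, with a median of 0.88, and 4 and 1 of 12 in the 1366, with 0.50. Ifi27l2a was at 377 CPM in the restricted set, against 41.3 CPM in restricted sham, and Ifitm3, an antiviral membrane protein, at 297 CPM, against 37.1 CPM. Irf1, a factor of interferon signalling, was lower at 37.2 CPM, against 219 CPM. Of 14 MHC class I genes 4 were lower and 0 higher in both sets, with medians of -0.82 in the restricted set and -0.72 in the 1366. B2m, the class I light chain, was at 989 CPM, against 1618 CPM. Of 6 MHC class II genes 0 were higher and 1 lower in the 1366, with a median of -0.04, and 2 were higher and 1 lower in the restricted set, with a median of 0.40. H2-Aa, a class II chain, stood at 31.8 CPM there, against 7.76 CPM in restricted sham and 718 CPM in macrophage barcodes. The part of RNA from other cells in the class II levels of the restricted set was not tested.

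The last lists held growth factor, chaperone and cell cycle genes. Of 10 measured growth factor and repair genes 2, Igf1 and Lgals3, were higher and 1, Pdgfb, lower in the restricted set, with Pdgfb at 68.1 CPM, against 323 CPM in restricted sham, while in the 1366 it was 3 and 1 of 12. Of 15 proteasome and chaperone genes 2 were higher and 2 lower in the restricted set, with a median of 0.59, and 3 and 2 in the 1366, with 0.65. In the restricted set 10% of growth factor genes and 13.3% of proteasome and chaperone genes were lower, near the 12.6% of all genes. Of 10 S-phase and replication genes outside the gate 6 were higher and 0 lower, with a median of 1.09, and of 2 measured mitosis genes 1, Ccnb2, was higher, at 20.8 CPM, against 0.425 CPM. In the 1366 the S-phase genes counted 3 higher and 0 lower of 6, with a median of 0.88, and the 1 measured mitosis gene was not past 2-fold. Mcm6, a helicase subunit of replication, was at 40.9 CPM, against 5.32 CPM in restricted sham. Of 11 G1 regulators and inhibitors 3 were higher and 2, Myc and Btg1, lower in the restricted set, with a median of -0.19, and 1, Cdk4, and the same 2 of 10 in the 1366, with a median of -0.24. E2f1, which drives S-phase genes, was at 20.7 CPM, against 1.6 CPM, and Cdk4, a kinase of the G1 phase, at 117 CPM, against 47 CPM. Cdkn1a, the inhibitor p21, was at 341 CPM, against 156 CPM, past 2-fold in the restricted set and short of it in the 1366.

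Differences were also found where both groups had a microglia-gene sum above a shared lower limit. Above it the sums were not matched, with medians of 46.5 per 10000 at 3 dpi and 63.6 in sham. In 139 restricted barcodes with a sum of at least 40 per 10000, against 1694 restricted sham barcodes above the same limit, 371 of 6008 genes (6.18%) were higher and 686 (11.4%) lower. Homeostatic genes were lower for 16 of 26, with a median of -1.24, activation genes higher for 18 of 27, with a median of 1.96, and immediate early genes lower for 18 of 21, with a median of -2.06. NF-kB feedback genes were lower for 2 of 12, with a median of -0.48, against 5 of 12 in the whole restricted set. Spp1 stood at 8842 CPM in these 139 barcodes, against 3.11 CPM in the sham ones, and Cst3 at 7841 CPM, against 52750 CPM. Of 13 interferon genes 7 were higher and 1 lower. In this stratum 0.719% (0.0182 to 3.94) of 3 dpi barcodes were called doublets, against 1.48% (0.957 to 2.17) in sham. Within the restricted 3 dpi set Spp1 had 31520, 44360, 24030 and 8842 CPM at sums of 5 to 10, 10 to 20, 20 to 40 and at least 40, and Cst3 had 1951, 2641, 4512 and 7841 CPM.

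The sexes could be read separately, since each library pooled both. Restricted barcodes with Y-linked UMIs and no Xist numbered 221 at 3 dpi and 505 in sham, and those with Xist and no Y-linked UMI 322 at 3 dpi and 835 in sham. Spp1 stood at 29390 CPM in male and 24600 CPM in female restricted 3 dpi barcodes, against 3.47 and 249 CPM in the sham ones. Apoe stood at 13250 and 16550 CPM, against 1840 and 1765 CPM, and Cst3 at 3859 and 5098 CPM, against 49920 and 50600 CPM. The direction was the same in both sexes for each of the 3 genes, while the sham levels of Spp1 rested on the 1.47% of restricted sham barcodes with any Spp1 UMI. These are pools of 5 mice each and not replicates.

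Spp1 was among the genes that varied most between the barcodes. After each barcode was thinned to 2000 UMIs, the ratio of variance to mean over the 700 restricted barcodes was 83.1 for Spp1, the highest beside a median of 1.05 over 2508 genes. Over all 1366 barcodes Apod, an apolipoprotein, was highest with 112, and Spp1 followed with 78.4. In the restricted set Hbb-bs, a haemoglobin chain, had 82.1, and Apoe with 22.4, Fth1 with 22.4 and Ftl1 with 20.5 were also among the highest. Among restricted sham barcodes Apoe had 88.6 and Spp1 60.7, with Spp1 in few barcodes. Haemoglobin transcripts belong to other cell types. As sums over a list, the homeostatic genes outside the gate held a median of 28 of the 2000 UMIs in restricted 3 dpi barcodes, with 5th and 95th percentiles of 10 and 61.1, against 157, 91 and 224 in restricted sham. Phagocyte activation genes held a median of 136.5 (54.9 and 320), against 39 (23 and 63), and lipid genes 34 (8 and 92), against 3 (0 and 12). For the homeostatic sum the central ranges at 3 dpi and in sham did not overlap. Single genes made up much of the homeostatic and lipid sums. In restricted sham Cst3 alone had a mean of 100.5 UMIs, beside a mean of 156.5 for the homeostatic sum. In restricted 3 dpi barcodes Apoe alone had a mean of 31.4 UMIs, beside a mean of 39.2 for the lipid sum. Whether the ranges would stay apart without Cst3 was not tested.

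**Figure D4:**
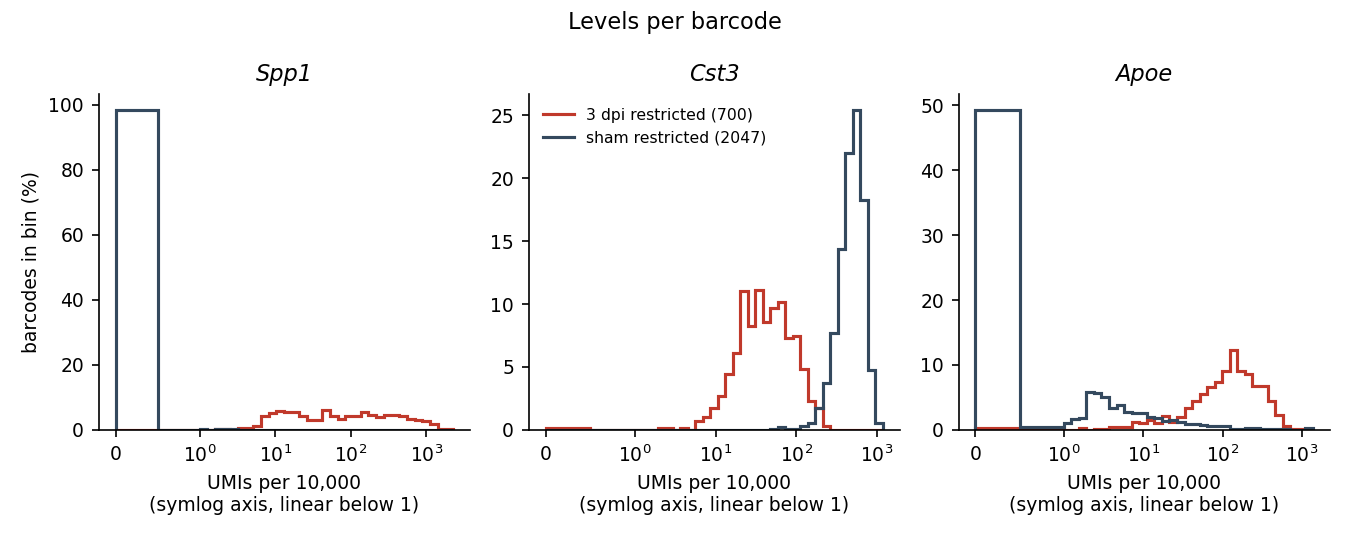
Share of barcodes in each bin of level (UMIs per 10000, symlog axis, linear below 1) for Spp1, Cst3 and Apoe in 700 restricted 3 dpi barcodes (red) and 2047 restricted sham barcodes (dark). Spp1 spreads from 1.75 to 2249 at 3 dpi while 98.5% of sham barcodes are at 0, Cst3 lies lower at 3 dpi with medians of 40.2 and 499, and Apoe lies higher with medians of 126 and 1.07.

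Ordering the 700 restricted barcodes by Spp1 gave 4 sets of 175, which are a description of the spread and not groups of the study. From low to high, Spp1 was at 1092, 3850, 15200 and 62871 CPM. The lowest set was no higher than the precursor and oligodendrocyte barcodes above, so its Spp1 was at the level found in cells of other classes. Median depth was 7493, 8105, 10404 and 14404 UMIs, and the median microglia-gene sum 33.1, 34.4, 28.1 and 22.9 per 10000, so depth moved with Spp1 and its part was not tested. Doublets were called in 6.86, 5.71, 7.43 and 3.43% of the sets.

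With Spp1 left out of the totals, 108 of 5601 genes (1.93%) were higher and 273 (4.87%) lower in the highest set relative to the lowest. Adam8 was at 291 CPM in the highest set, against 22.6 CPM in the lowest, and Lgals3 at 2260 CPM, against 288 CPM. Plin2 was at 1193 CPM, against 226 CPM, Igf1 at 285 CPM, against 51.1 CPM, and Cd5l, a secreted scavenger protein of macrophages, at 237 CPM, against 23.4 CPM. Each of the 5 was higher in every set than in the one below it. Of 17 lipid genes 7 were higher, with a median of 0.67, and of 27 activation genes 8, with a median of 0.50. Of 26 homeostatic genes 11 were lower, with a median of -0.88, and of 20 immediate early genes 10, with a median of -1.01. Crybb1 was at 8.75 CPM in the highest set, against 147 CPM in the lowest, Csf1r at 537 CPM, against 1404 CPM, and Cx3cr1 at 602 CPM, against 1271 CPM. Of 6 MHC class II genes 4 were lower, Cd74, the class II chaperone, at 31.7 CPM, against 180 CPM. Apoe did not follow Spp1, at 12630 CPM, against 12892 CPM, with 16376 and 18192 CPM in the sets between. Genes of other cell types, such as Nnat, Fabp7 and Clu, were also lower in the highest set, Nnat at 3.33 CPM, against 416 CPM.

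**Figure D5:**
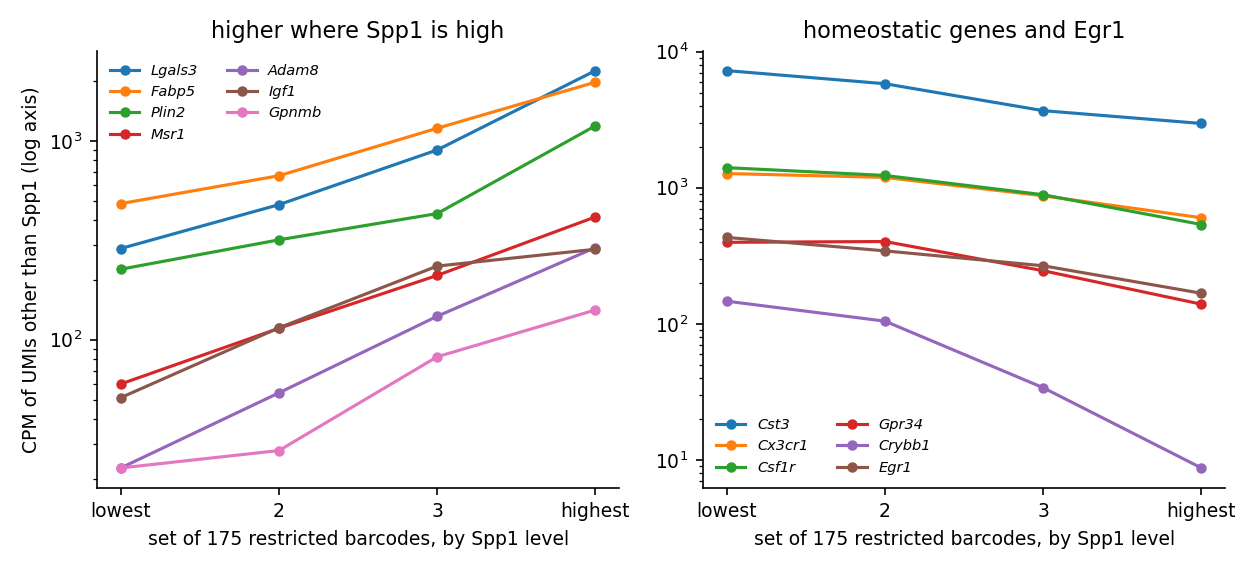
CPM of UMIs other than Spp1 on a log axis over the 4 sets of 175 restricted 3 dpi barcodes ordered by Spp1, for genes that were higher with Spp1 (left) and for homeostatic genes and Egr1 (right). Lgals3 runs up to 2260 CPM in the highest set while Crybb1 runs down to 8.75 CPM and Csf1r down to 537 CPM.

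Each of the 700 barcodes was thinned to 2000 UMIs, Spp1 among them. A high Spp1 count thus left fewer UMIs for other genes, and its part in the correlations was not tested. On these counts Spearman's rho with Spp1 was 0.54 for Ftl1, 0.49 for Lgals3, 0.49 for Fth1, 0.40 for Lgals1 and 0.39 for Pkm, the 5 genes most like it of 263 examined. It was -0.49 for Cst3, -0.47 for Marcks, a membrane-bound actin regulator, and -0.40 for Csf1r. Barcodes share a library, and depth differed along Spp1, so no p is given.

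The next comparison set the barcodes against cycling barcodes of the same library. For the 1366 barcodes 70 of 5598 genes (1.25%) were higher and 183 (3.27%) lower. The higher genes were led by Dcn, a matrix proteoglycan, at 614 CPM, against 70.3 CPM in cycling barcodes, Igfbp5 at 226 CPM, against 28.4 CPM, and Mgp, matrix Gla protein, at 714 CPM, against 157 CPM. These are fibroblast genes. In the restricted comparison 10 of 5498 genes (0.182%) were higher and 197 (3.58%) lower. Dcn stood there at 8.83 CPM, against 12 CPM, but it is a gene of the fibroblast gate, so the restriction fixed its fall. Of mitosis genes outside the gate 20 of 20 were lower, with a median of -2.24, and of S-phase genes 13 of 18, with a median of -1.40, on genes tied to those of the gate. Of 28 activation genes and of 23 homeostatic genes 0 passed 2-fold either way, with medians of 0.20 and 0.32. Spp1 was at 26870 CPM in restricted non-cycling barcodes, against 27510 CPM in restricted cycling ones, and Cst3 at 4439 CPM, against 2640 CPM. Among the 10 higher genes were 4 haemoglobin chains, Hbb-bs, Hbb-bt, Hba-a1 and Hba-a2, and the others were Nnat, Ccl5, Siglech, Mxd4, Ifit3 and Ifi27l2a. Ifi27l2a was at 377 CPM, against 174 CPM, Ccl5, a chemokine, at 40.4 CPM, against 11.5 CPM, and Mxd4, a repressor that opposes MYC, at 76 CPM, against 29 CPM. Cxcl10, an interferon-induced chemokine, was lower at 179 CPM, against 459 CPM.

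Relative to monocyte/macrophage barcodes of the same library, gated for at least 5 per 10000 of the 9 macrophage genes and a microglia-gene sum below 1, the restricted barcodes had 301 of 5578 genes higher (5.4%) and 327 lower (5.86%). For the 1366 barcodes 232 of 5520 were higher (4.2%) and 157 lower (2.84%). The macrophage barcodes had no limit on Hmox1 or on cell cycle UMIs, unlike the restricted set. Of other cell classes, they were limited only for neutrophil and oligodendrocyte genes. Neither group had a gate on dendritic genes. Gates on both sides fixed the direction of the gated genes. Outside them, Gpr34 was at 264 CPM in the restricted set, against 2.18 CPM in macrophage barcodes, and Cx3cr1 at 899 CPM, against 37.2 CPM. Ccl4 was at 2490 CPM, against 182 CPM, Ccl3 at 1037 CPM, against 86.5 CPM, and Tnf at 260 CPM, against 24.5 CPM, although these 3 were lower than in sham microglia. Lpl was at 320 CPM, against 28 CPM, Igf1 at 187 CPM, against 25.5 CPM, and Gpr84, a receptor for medium-chain fatty acids, at 234 CPM, against 9.37 CPM. Of 23 homeostatic genes 18 were higher and 0 lower, with a median of 1.92, and of 12 NF-kB feedback genes 7 and 0, with 1.39. The homeostatic genes, Gpr34 and Cx3cr1 among them, are tied to the microglia genes on which the 2 groups were gated apart.

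MHC class II genes and part of the cytoskeleton, adhesion and matrix list were lower in the restricted set than in macrophage barcodes. Of 6 MHC class II genes 4 were lower in the restricted set, with a median of -3.81, among them Cd74 at 102 CPM, against 1869 CPM. At 2000 UMIs a barcode, the class II sum was 0 in 56.4% of restricted and 56.6% of macrophage barcodes. It was 5 UMIs or more in 0.714% of restricted and 19.6% of macrophage barcodes. The class II difference thus lay in a minority of the barcodes of the macrophage gate. The 4 dendritic markers summed to 13.1 CPM in macrophage barcodes, against 0.272 CPM in the restricted set. Whether that minority was macrophages or dendritic cells was not tested. Of 11 MHC class I genes 1 was lower, with a median of -0.09. Of 26 cytoskeletal genes 11 were lower and 1 higher, and of 14 iron and stress genes 6 and 0. Hmox1 was limited in the restricted set only, and its part in the iron and stress counts was not tested. Gpnmb was at 77.2 CPM, against 1371 CPM, Fabp5 at 1170 CPM, against 8392 CPM, and Lgals3 at 1121 CPM, against 5543 CPM. Spp1 did not separate the classes in bulk, at 26870 CPM in the restricted set, against 26490 CPM in macrophage barcodes, nor did Apoe, at 14540 CPM, against 18140 CPM. Fn1 was likewise at 1114 CPM, against 1014 CPM. Levels here are CPM of the summed barcodes.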

How the data were processed

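The deposited tables held raw UMI counts per gene symbol and barcode, made from 10x 3′ v.3 libraries per the labels' protocols. Cell Ranger, Seurat and the build GRCh38 are named in the submitters' processing notes, although the symbols are those of mouse. No label or header names a filter on cells. Each table had 22480 genes. There were 13594 barcodes with 149291783 UMIs at 3 dpi and 10138 barcodes with 76889038 UMIs in sham.

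UMIs were summed over the barcodes of a group and scaled to 1000000 (CPM). The log2 ratio was taken with 10 CPM added, for genes at 20 CPM or more in at least 1 group, and a gene past 2-fold was called. With 1 library per group no p-value was computed. Intervals (95%, Poisson for CPM and Clopper-Pearson for shares) and the floor of 3 counts cover counting error only. Genes were named as the 15 highest and 15 lowest with at least 100 CPM and 20 UMIs in the higher group, past 2-fold the same way in male- and female-derived barcodes, outside the gates, not sex-linked, and at 10% or more of the highest level in any gated class. The genes of 25 lists were also described; a few of their genes are not reported here. The members and lists were chosen with earlier results of these data known. Doublets were called against simulated doublets and kept unless stated. The 12 alternatives covered scaling, added CPM, level filter, gates, doublets, free RNA, barcode weights, sex and macrophage genes; the removal of other cell classes was chosen after seeing the data, as was the restricted set. Tables were handled with pandas 2.3.3 and numpy 2.4.6 in Python 3.11.15, intervals came from scipy 1.17.1, doublet neighbours from scikit-learn 1.9.0 and plots from matplotlib 3.10.9.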

Additional observations from a re-analysis of the deposited data

How the results depend on the processing

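The log2 ratios of the 30 genes named against sham held their sign under the 12 alternatives. In male- and in female-derived barcodes that sign was fixed by how the genes were chosen. The list medians also held their sign, except those of mitosis genes and of MHC class II. The MHC class II median was near 0 at -0.04 and reached 0.40 without macrophage or other-class barcodes. The counts relative to sham lay between 490 and 806 higher genes and between 691 and 1370 lower genes. The 70 genes higher than in cycling barcodes became 120 with 1 CPM added, 33 with a microglia-gene sum of at least 10, 168 with 0 cell cycle UMIs, 138 without called doublets, 118 with barcodes weighted equally, 142 in male-derived barcodes, 121 without macrophage-gene barcodes and 10 without macrophage or other-class barcodes. The 157 genes lower than in macrophage barcodes became 240 with 1 CPM added, 259 with a sum of at least 10, 263 without macrophage-gene barcodes and 327 without macrophage or other-class barcodes. The 232 higher genes became 381 without macrophage-gene barcodes. The cause of these moves was not tested.

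Among list medians relative to sham, that of chemokine, complement and purine receptors was -0.17 with no filter on level, that of mitosis genes 0.20 with no filter and 0.58 without macrophage or other-class barcodes, where the 1366 gave -0.45 on 1 gene, and that of MHC class II -0.64 without called doublets. The log2 ratio of Spp1 was 6.65 in barcodes of at least 5000 UMIs and 8.22 with 0 cell cycle UMIs, and that of Arg1 was 1.93 without macrophage-gene barcodes. No paired analysis was possible because each group is 1 library. Depth limits low genes: levels near 1 CPM rest on few UMIs.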
